A study of Mus musculus with 16 samples.

Results

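The Rab genes encode small GTPases of the Ras superfamily that act in membrane traffic. In the RNA-seq table of growing mouse oocytes they were taken by name, as every gene whose symbol is Rab followed by a number and at most a letter from a to d, which gave 56 genes of 25965. The rule uses no measured value. A Rab protein cycles between a GDP-bound form, held soluble in the cytosol by a GDP dissociation inhibitor (GDI), and a GTP-bound form on a membrane, where it recruits effectors that move, tether or fuse vesicles. Guanine nucleotide exchange factors (GEFs) load GTP, GTPase-activating proteins (GAPs) promote its hydrolysis, and a prenyltransferase adds the lipid anchors. Each compartment carries its own set of Rab proteins. A growing oocyte builds a zona pellucida, which it secretes, and cortical granules, which are secretory vesicles released at fertilization, and Rab3a and Rab27a have been linked to those granules.

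The oocytes came from pre-pubertal wild-type mice, C57BL/6 in the labels and C57BL/6Babr in the methods, and were sorted by diameter, and no group carried a treatment. Larger oocytes were taken from older mice, with overlapping age ranges between neighbouring classes, so that diameter and age cannot be told apart. RNA-seq was done on pools of oocytes in 4 diameter classes, the smallest 10–30 μm, then 40–45 μm, then 50–55 μm, and the largest 60–65 μm, with 2 libraries per class named A and B, and a single column held germinal vesicle (GV) oocytes, the fully grown stage. RRBS, bisulphite sequencing of CpG-rich restriction fragments, was done in duplicate on the 3 larger classes, and PBAT, bisulphite sequencing of the whole genome, once on the 60–65 μm class. Neither the labels nor the methods say that the letters A and B stand for separate animals, so that the p-values below measure only the spread between these pools, which may be technical.

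Levels are in RPKM, reads scaled to exon length and library size, which measures a share of a library and not molecules per oocyte. In such pools, fewer cells of a type and less RNA per cell cannot be told apart. Recovered read totals lay between 2.25e+07 and 5.25e+07 per library, and A and B of a class correlated across genes at r of 0.986 to 0.995 on the log2 scale. All 10 oocyte markers, among them Zp3 and Gdf9, stood at 0.5 RPKM or above in every library, with sums of 2476 to 3432 RPKM. Summed levels of 13 granulosa cell genes were 2.19 and 2.60 RPKM at 10–30 μm against 7.97 and 7.34 RPKM at 60–65 μm, of which Nr5a2 made up 4.81 and 4.6 RPKM. Cyp19a1, the aromatase of granulosa cells, went from 0.161 and 0.159 to 1.25 and 1.04 RPKM, and Inha, Fshr, Kitl, Amh and Amhr2 were likewise higher in both 60–65 μm libraries than in either 10–30 μm library, whereas Foxl2 and Wt1 overlapped and Foxl2 was at most 0.0642 RPKM in any library. Theca and stroma genes, 9 in number, summed to 4.0 and 2.88 RPKM at 10–30 μm against 1.12 and 1.03 RPKM at 60–65 μm. Endothelial genes, 4 in number, went from 1.06 and 1.17 to 5.93 and 5.34 RPKM. Of these Pecam1 went from 0.567 and 0.531 to 4.7 and 4.19 RPKM, Tek and Kdr were also higher at 60–65 μm, and Cdh5 was at most 0.0101 RPKM. The 6 immune and blood genes went from 1.56 and 1.30 to 2.61 and 2.82 RPKM, mostly C1qb. These lists thus moved with oocyte size, and their part in the results below was not tested.

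Growing oocytes held a broad but uneven set of Rab transcripts. Of the 56 genes, 36 reached 0.5 RPKM in at least 2 of the 8 libraries of growing oocytes, 14 more had at least 10 reads over those libraries, and 6 had 9 or fewer. Rab17, a Rab of polarized epithelia, had 0 reads in all 9 columns. Summed over the family, levels were 251 and 264 RPKM at 10–30 μm, 253 and 252 RPKM at 40–45 μm, 258 and 250 RPKM at 50–55 μm, 275 and 257 RPKM at 60–65 μm and 266 RPKM in GV oocytes. The sum thus differed little between classes, and the 12 highest genes of a library made up 70.8% to 74.7% of it.

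By mean level over the 8 libraries the order was Rab38 at 23.4 RPKM, Rab1b at 19.2, Rab5c at 18.8, Rab21 at 18.2, Rab3d at 17.4, Rab2a at 16.4, Rab11a at 16.4, Rab7 at 15.4, Rab10 at 14.6, Rab27a at 10.9, Rab6a at 8.29 and Rab35 at 7.50 RPKM. Between neighbours in this order the ranges over the 8 libraries overlapped, except that the lowest value of Rab10 (12.96 RPKM) was just above the highest of Rab27a (12.86 RPKM). Rab38, known from melanosomes and other lysosome-related organelles, was above every other Rab gene from the 40–45 μm class on in both libraries of a class, except in library 40–45 B, where Rab1b stood at 20.9 and Rab5c at 20.9 RPKM against 19.4 RPKM for Rab38. In 10–30 μm oocytes Rab1b led instead, at 24.2 and 23.6 RPKM.

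**Figure D1:**
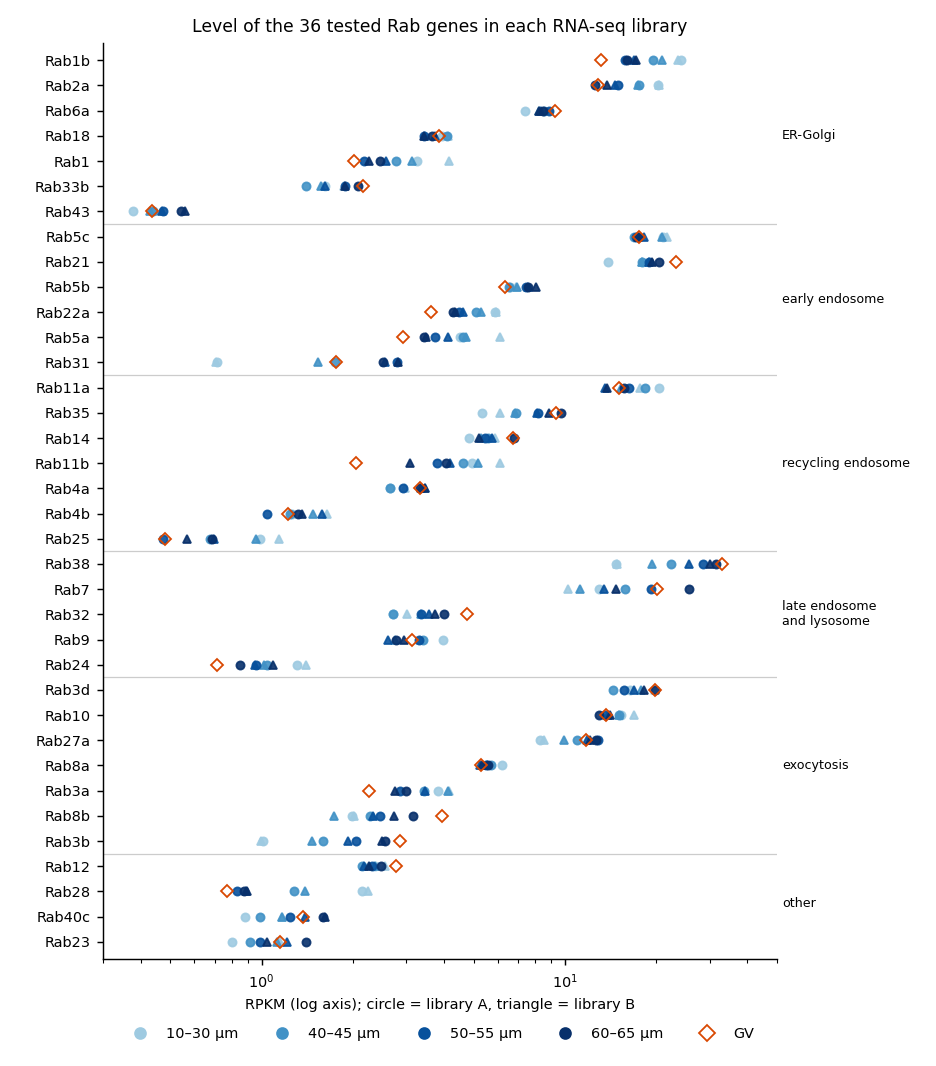
Level of the 36 Rab genes at 0.5 RPKM or above in at least 2 libraries, on a log axis in RPKM, grouped by the compartment of the protein. Circles are libraries A, triangles libraries B, shades of blue the 4 diameter classes and open diamonds the GV column; Rab31 and Rab38 lie farther right in larger oocytes, and Rab28 farther left.

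Between 10–30 and 60–65 μm oocytes the family split into genes that rose and genes that fell. Of the 36 Rab genes tested, 10 rose and 12 fell, and 14 did not pass the test (limma, adjusted p under 0.05 over all 10518 genes tested). Among all tested genes 31.5% rose and 31.8% fell, against 27.8% and 33.3% of the Rab genes, so that the family as a whole changed about as often as any gene. The median log2 difference was 0.013 over the Rab genes and -0.00024 over all genes, and the median size of a difference was 0.43 against 0.48. The 4 differences of at least 1 on the log2 scale were the rises of Rab31, Rab3b and Rab38 and the fall of Rab28. Of the 22 calls, 9 were lost when some single library was left out. These were Rab21 (without 10–30 A, 60–65 A or 60–65 B), Rab5c (without 10–30 A or any library of the 2 largest classes), Rab10 (without any of the 8 libraries in turn), Rab8b (without 10–30 B or 60–65 A), Rab25 (without 10–30 B or 60–65 B), Rab43 (without 10–30 A, and not tested without 60–65 A or 60–65 B, since it then fell under the filter), Rab3a (without 60–65 B), and Rab24 and Rab32 (without 60–65 A).

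Between consecutive classes, calls were most numerous in the first step. From 10–30 to 40–45 μm, 5 Rab genes rose (Rab31, Rab3b, Rab38, Rab27a and Rab35) and Rab28 fell, where 13.2% of all genes rose and 9.76% fell. Without the filter on low values, 5 of 55 rose and 5 fell, with Rab6b, Rab34, Rab36 and Rab37 added to the falls, and 6.12% of all 20052 genes then rose and 6.73% fell. From 40–45 to 50–55 μm Rab31 rose again and Rab28 fell again, beside 5.27% and 3.45% of all genes. Neither passed without 40–45 B, 50–55 A or 50–55 B. Each of these fits leaves 1 library in a class, and calls over all genes were fewer in them as well. In the first step Rab38 was lost without 40–45 A, Rab27a without any library but 40–45 B, and Rab35 without any library but 10–30 B. From 50–55 to 60–65 μm no Rab gene was called by limma, by edgeR or by DESeq2, and 1 of the 36, Rab3b, had an unadjusted p under 0.05. In that last step limma called 0% of all genes in either direction, with 1440 of 10518 at an unadjusted p under 0.05. By edgeR 0% of all genes were called as well, and by DESeq2 1.16% rose and 1.23% fell.

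**Figure D2:**
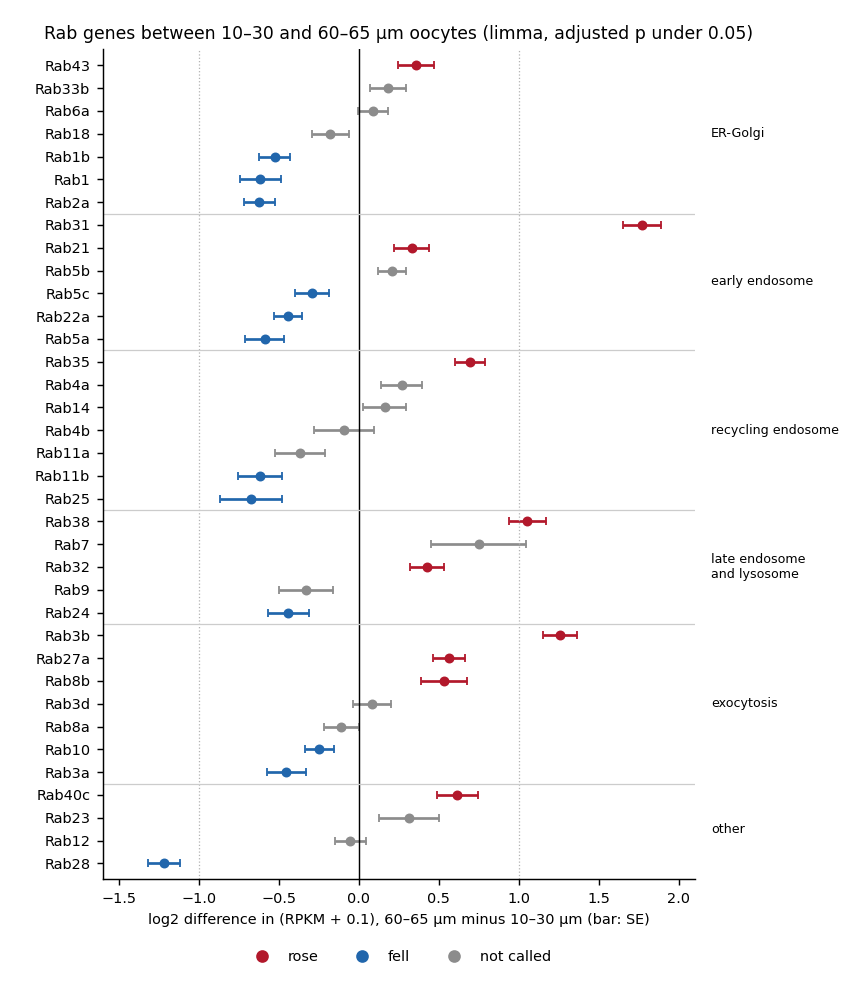
Log2 difference in RPKM plus 0.1 between 60–65 and 10–30 μm oocytes for the 36 tested Rab genes, grouped by compartment; points are limma estimates, bars their SE, red rose, blue fell and grey did not pass. Rab31 stands highest at 1.77 and Rab28 lowest at -1.22.

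Rab31, also called Rab22b, a Rab5 relative that works between the trans-Golgi network and early endosomes, rose most. The gene lies on chromosome 17 at chr17:65651726-65772752 on the minus strand (GRCm38). Its level was 0.712 and 0.709 RPKM at 10–30 μm, 1.74 and 1.53 RPKM at 40–45 μm, 2.79 and 2.56 RPKM at 50–55 μm, 2.52 and 2.82 RPKM at 60–65 μm and 1.76 RPKM in GV oocytes. The first 3 classes did not overlap, the last 2 did, and the GV value lay below both libraries of the preceding class. The rise from 10–30 to 60–65 μm was 1.77 ± 0.12 on the log2 scale (SE, limma adjusted p = 1.21e-05), from 10–30 to 40–45 μm 1.16 ± 0.12 (adjusted p = 0.000935) and from 40–45 to 50–55 μm 0.64 ± 0.12 (adjusted p = 0.0205). These values rest on 246 to 1770 recovered reads per library.

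Rab3b, of the Rab3 group that serves regulated exocytosis, rose second most. The gene lies at chr4:108879063-108943324 on the plus strand. Its level was 1.01 and 0.998 RPKM at 10–30 μm, 1.60 and 1.47 RPKM at 40–45 μm, 2.05 and 1.93 RPKM at 50–55 μm, 2.56 and 2.50 RPKM at 60–65 μm and 2.87 RPKM in GV oocytes. All 5 groups were separate, and each was above the one before. The difference from 10–30 to 60–65 μm was 1.26 ± 0.10 (SE, adjusted p = 2.66e-05), and that of the first step was 0.63 ± 0.10 (adjusted p = 0.0050). An antisense gene, 8030443G20Rik, shares 317 exon bases with it. The paper describes the RNA-seq libraries as strand-specific, but whether strand was used in the counting is not given in the sources used here.

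Rab38 went from 14.8 RPKM in both 10–30 μm libraries to 22.4 and 19.4 RPKM at 40–45 μm, 28.6 and 25.6 RPKM at 50–55 μm, 31.4 and 30.0 RPKM at 60–65 μm and 32.9 RPKM in GV oocytes. No pair of neighbouring classes overlapped. The gene lies at chr7:88430273-88491466 on the plus strand, and its rise from 10–30 to 60–65 μm was 1.05 ± 0.12 (SE, adjusted p = 0.000104). The first step, 0.56 ± 0.12, had an adjusted p of 0.0113.

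Rab28, a divergent Rab studied mainly at cilia and in photoreceptors, was the one large fall. Its level was 2.15 and 2.24 RPKM at 10–30 μm, 1.28 and 1.39 RPKM at 40–45 μm, 0.832 and 0.886 RPKM at 50–55 μm, 0.872 and 0.895 RPKM at 60–65 μm and 0.771 RPKM in GV oocytes. The gene lies at chr5:41624976-41708155 on the minus strand. It fell by 1.22 on the log2 scale from 10–30 to 60–65 μm (SE 0.10, adjusted p = 2.34e-05), by 0.61 in the first step (SE 0.10, adjusted p = 0.0045) and by 0.62 in the second (SE 0.10, adjusted p = 0.0162). In the last step the libraries of both classes overlapped.

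**Figure D3:**
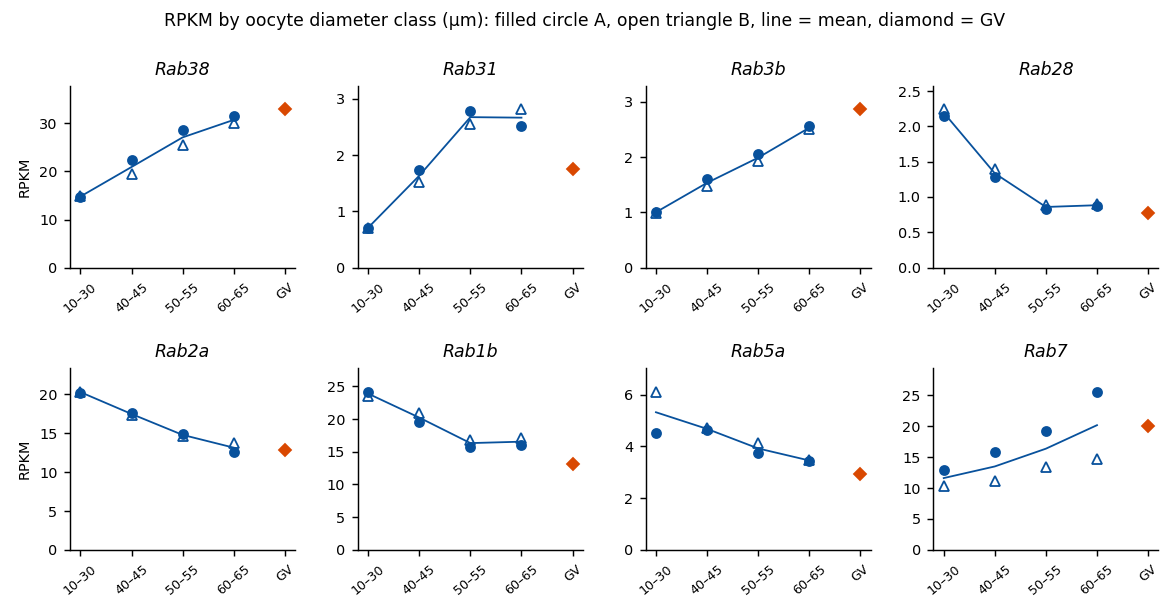
RPKM of 8 Rab genes by diameter class in μm, each panel from 0; filled circles are libraries A, open triangles libraries B, lines class means and diamonds the GV column. Rab38, Rab31 and Rab3b climb, Rab28, Rab2a, Rab1b and Rab5a decline, and library A of Rab7 lies above library B in each class.

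The sequence upstream of Rab31, Rab3b and Rab28 is shown because they were among the genes that changed most. Rab38, the other large change, had no matched upstream window. The 250 bases before the RefSeq start (GRCm38.p6) are given 5′ to 3′ on the strand of the gene, in lower case, and capitals mark matches on either strand. The letters searched were GGGCGG for the GC box, CCAAT for the box of that name, TATAAA for the promoter element bound by the TATA-binding protein, and CACGTG for the E-box. The windows are chr17:65772753-65773002 for Rab31, chr4:108878820-108879069 for Rab3b and chr5:41708180-41708429 for Rab28.
Rab31: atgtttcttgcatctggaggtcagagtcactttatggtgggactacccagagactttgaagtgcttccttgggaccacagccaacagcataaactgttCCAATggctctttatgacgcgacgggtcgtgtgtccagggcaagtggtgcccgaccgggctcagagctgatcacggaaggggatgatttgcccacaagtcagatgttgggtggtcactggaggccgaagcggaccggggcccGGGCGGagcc
Rab3b: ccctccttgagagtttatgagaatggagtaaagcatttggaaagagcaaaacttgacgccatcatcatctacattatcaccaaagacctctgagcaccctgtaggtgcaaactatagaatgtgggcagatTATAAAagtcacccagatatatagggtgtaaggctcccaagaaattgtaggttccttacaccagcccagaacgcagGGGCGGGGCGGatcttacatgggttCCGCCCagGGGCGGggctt
Rab28: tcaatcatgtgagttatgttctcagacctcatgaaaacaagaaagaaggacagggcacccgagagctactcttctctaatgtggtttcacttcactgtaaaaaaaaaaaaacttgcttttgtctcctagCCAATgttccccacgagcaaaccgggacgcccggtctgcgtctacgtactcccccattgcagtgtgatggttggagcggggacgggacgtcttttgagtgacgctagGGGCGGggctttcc

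In these letters Rab31 and Rab28 each held a GC box, beginning 10 and 14 bases before the start, and a CCAAT match, 152 and 121 bases before it. Rab3b held 4 GC boxes, the first 2 of them sharing a base, and a TATAAA match 120 bases before the start. None held CACGTG. Of the 56 Rab genes, 45 matched the RefSeq promoter table, and 31 of the 45 windows held GGGCGG (68.9%, against 32.9% of 27025 genes). CCAAT was in 22 (48.9%, against 34.5%), TATAAA in 3 (6.67%, against 13.0%) and CACGTG in 4 (8.89%, against 6.05%). The Rab windows had a median of 16 CpG sites and all windows a median of 6, so that the shares are of sequences of unlike base composition. The windows of Rab31, Rab3b and Rab28 held 12, 6 and 12 CpG sites. In Rab31, RRBS covered 2 to 11 CpG cytosines of this window per library at 5 or more reads, with mean methylation between 0% and 2.08%. In Rab28 it covered 4 to 10, with means between 0% and 3.85%. In Rab3b RRBS covered no cytosine of the window, and PBAT covered 1, at 0%.

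The Rab genes of traffic between the endoplasmic reticulum (ER) and the Golgi included 7 that were tested, of which 3 fell and 1 rose, where 31.5% of all genes rose and 31.8% fell. These shares of all genes are the background to each of the role groups that follow, none of which was tested as a group. Their summed mean level was 62.9 RPKM at 10–30 μm and 47.0 RPKM at 60–65 μm. Rab2a, which acts at the Golgi and the compartment before it, was at 20.2 and 20.4 RPKM at 10–30 μm, 17.6 and 17.4 RPKM at 40–45 μm, 15.0 and 14.6 RPKM at 50–55 μm, 12.6 and 13.8 RPKM at 60–65 μm and 12.8 RPKM in GV oocytes. No 2 classes of growing oocytes overlapped, and it fell by 0.62 on the log2 scale (SE 0.10, adjusted p = 0.00062). Rab1b, needed for transport from the ER to the Golgi, was at 24.2 and 23.6 RPKM at 10–30 μm and 16.0 and 17.1 RPKM at 60–65 μm, and it fell by 0.53 (SE 0.10, adjusted p = 0.0017). Its close copy Rab1, at 3.24 and 4.14 RPKM against 2.46 and 2.26 RPKM, fell by 0.62 (SE 0.13, adjusted p = 0.0031). In GV oocytes Rab1b was at 13.2 and Rab1 at 2.02 RPKM, below both 60–65 μm libraries. Rab6a, of the Golgi, stayed between 7.39 and 8.84 RPKM in the growing classes and did not pass (log2 difference 0.09 ± 0.09, SE). The gene counted as higher, Rab43, reached 0.5 RPKM only in the 60–65 μm libraries (0.377 and 0.443 RPKM at 10–30 μm, 0.544 and 0.558 RPKM at 60–65 μm). It thus entered the test only through the class where it was high, and its call is no support for a rise. It also shares 4164 exon bases on the same strand with Gm45140, so that its reads cannot be assigned with certainty.

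Of 6 tested early endosome genes 2 rose and 3 fell (all genes, 31.5% and 31.8%), and their summed mean level was 56.0 RPKM at 10–30 μm and 55.5 RPKM at 60–65 μm. Beside Rab31, the gene that rose was Rab21, a Rab linked to integrin uptake, at 13.9 and 18.0 RPKM in 10–30 μm, 20.4 and 19.3 RPKM in 60–65 μm and 23.2 RPKM in GV oocytes (0.33 ± 0.11, SE, adjusted p = 0.0272). The 10–30 μm libraries differed more from each other than library B did from the larger growing classes. The Rab5 genes, which drive fusion of early endosomes, did not move alike. Rab5a was at 4.52 and 6.12 RPKM in 10–30 μm and 3.43 and 3.48 RPKM in 60–65 μm oocytes and fell by 0.59 (SE 0.12, adjusted p = 0.0033). Rab5c, at 21.1 and 21.7 RPKM against 17.4 RPKM in both 60–65 μm libraries, fell by 0.29 (SE 0.11, adjusted p = 0.0376). Rab5b, at 6.57 and 6.90 RPKM against 7.55 and 8.02 RPKM, did not pass (0.21 ± 0.09, SE, adjusted p = 0.0674). Rab22a, the nearest relative of Rab31, was chosen for mention after its values were seen, at 5.87 and 5.94 against 4.29 and 4.34 RPKM, and fell by 0.44 (SE 0.09, adjusted p = 0.0024).

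Of 7 tested genes of recycling endosomes, 1 rose and 2 fell, beside the same 31.5% and 31.8% of all genes. Rab35, which returns cargo rapidly to the plasma membrane, was at 5.31 and 6.12 RPKM at 10–30 μm, 6.92 and 6.85 RPKM at 40–45 μm, 8.12 and 8.08 RPKM at 50–55 μm, 9.74 and 8.84 RPKM at 60–65 μm and 9.32 RPKM in GV oocytes. Each class lay above the one before, and the rise was 0.69 ± 0.09 (SE, adjusted p = 0.00033). Rab11b, one of the Rab11 genes of the recycling endosome, was at 4.95 and 6.11 RPKM at 10–30 μm, 4.06 and 3.09 RPKM at 60–65 μm and 2.04 RPKM in GV oocytes, and fell by 0.62 between the growing classes (SE 0.14, adjusted p = 0.0048). Its more abundant partner Rab11a, at 20.4 and 17.7 against 15.7 and 13.8 RPKM, did not pass (-0.37 ± 0.15, SE, adjusted p = 0.0635). Rab11a passed in limma with the library letter as a block (adjusted p = 0.0046) and in DESeq2 on recovered reads (adjusted p = 0.0439). In edgeR over all genes with at least 10 reads it did not (adjusted p = 0.0501). The other gene that fell, named after its values were seen, was Rab25, the epithelial member of the Rab11 group, at 0.986 and 1.14 against 0.688 and 0.568 RPKM.

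Late endosome and lysosome genes had a summed mean level of 34.4 RPKM at 10–30 μm and 58.7 RPKM at 60–65 μm, most of it Rab38 and Rab7. Of 5 tested, 2 rose (Rab38 and its relative Rab32) and 1 fell (Rab24, which shares 1258 exon bases with Prelid1 on the opposite strand), against 31.5% and 31.8% of all genes. Rab32 was at 2.71 and 3.01 RPKM in 10–30 μm, 4.0 and 3.73 RPKM in 60–65 μm and 4.74 RPKM in GV oocytes (0.43 ± 0.11, SE, adjusted p = 0.0086), a gene named after its values were seen. Rab7, the main Rab of late endosomes, was at 13.0 and 10.3 RPKM at 10–30 μm, 15.8 and 11.2 RPKM at 40–45 μm, 19.3 and 13.4 RPKM at 50–55 μm and 25.6 and 14.7 RPKM at 60–65 μm. Its difference of 0.75 did not pass (SE 0.30, adjusted p = 0.0542). Library A was above library B in all 4 classes, on average by 0.57 on the log2 scale, and 0.333% of tested genes had a larger average gap. With the letter as a block in the limma fit, the same difference passed (adjusted p = 0.00027). DESeq2 on recovered reads, also run after the data were seen, gave a rise of 0.79 (adjusted p = 0.0072). With edgeR on recovered reads, an analysis added after the data were seen, Rab7 rose by 0.79 over the 10490 genes kept by the filter on levels (adjusted p = 0.0414) and by 0.80 over all 17026 genes with at least 10 reads (adjusted p = 0.0284). Rab10, which limma called, passed in the first of these fits (-0.25, adjusted p = 0.0408) and not in the other (-0.24, adjusted p = 0.0641).

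Among 7 tested genes of exocytosis 3 rose (Rab3b, Rab27a and Rab8b) and 2 fell (Rab3a and Rab10), with 31.5% and 31.8% for all genes. Rab27a, a Rab of secretory granules, was at 8.25 and 8.51 RPKM at 10–30 μm, 11 and 9.91 RPKM at 40–45 μm, 12.9 and 11.9 RPKM at 50–55 μm, 12.7 and 12.1 RPKM at 60–65 μm and 11.7 RPKM in GV oocytes. It rose by 0.56 ± 0.10 (SE, adjusted p = 0.0016), and its 50–55 and 60–65 μm libraries overlapped. Its partner Rab27b had 2 to 6 reads per growing library, at most 0.0371% of the pair. Rab3a, the Rab of synaptic vesicles, was at 3.81 and 4.16 RPKM at 10–30 μm, 3.0 and 2.76 RPKM at 60–65 μm and 2.26 RPKM in GV oocytes, and fell by 0.45 (SE 0.12, adjusted p = 0.0111). Rab3d, by far the most abundant of the Rab3 genes, was at 16.4 and 19.8 against 19.8 and 18.2 RPKM, and did not pass (0.08 ± 0.12, SE). Rab10, a Rab of transport to the plasma membrane, was at 15.3 and 16.9 against 13.0 and 14.1 RPKM, and fell by 0.25 (SE 0.09, adjusted p = 0.0424). Rab8b, named after its values were seen, was at 1.99 and 2.02 against 3.16 and 2.74 RPKM and at 3.92 RPKM in GV oocytes.

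The remaining 11 genes had no place in these classes, and 4 of them were tested. Rab28 fell, Rab40c rose, from 0.885 and 1.17 to 1.60 and 1.62 RPKM, and Rab12 and Rab23 did not pass. Rab40c was named after its values were seen.

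Within groups of close paralogues, 1 gene usually held most of the summed RPKM, and that gene was the same in all 9 columns. Rab2a made up 99.1% ± 0.0418 of the Rab2 pair at 10–30 μm (SD, n = 2) and 99.1% ± 0.0141 at 60–65 μm, and Rab1b 86.6% ± 2.23 and 87.5% ± 1.19 of the Rab1 pair. The Rab3 group shifted. Rab3b went from 4.38% ± 0.534 of it at 10–30 μm to 7.26% ± 1.35, 9.32% ± 0.944 and 10.4% ± 0.406 at 60–65 μm, and was 11.5% in GV oocytes. Rab3a went the other way, from 17.3% ± 0.919 to 17.7% ± 0.0278, 14.7% ± 1.18 and 11.8% ± 0.0642, and 9.06% in GV oocytes, below Rab3b, while Rab3d held 75.1% to 78.3% of the group by class mean. In the Rab5 group Rab5b grew from 20.2% ± 0.396 to 27.2% ± 0.852 as Rab5a went from 15.8% ± 2.53 to 12.1% ± 0.0218. In GV oocytes Rab5b was back at 23.7% and Rab5a at 10.9%. Rab8b held 25.4% ± 1.70 of the Rab8 pair at 10–30 μm, 35.1% ± 1.56 at 60–65 μm and 42.5% in GV oocytes. The shares are given as a description, without a test. Reads were kept at a single place each, and how reads common to 2 paralogues were divided is not known.

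The 20 Rab genes below the filter were few in reads but not all constant. They were tested with edgeR on recovered reads over the 17026 genes with at least 10 reads in the 8 libraries, an analysis added after the data were seen, in which 27.4% of all genes rose and 27.5% fell from 10–30 to 60–65 μm. Of the 14 that could be tested, 2 rose and 6 fell. Rab13, a Rab of epithelial junctions, had 8 and 7 reads in the smallest class, then 8 and 11, then 17 and 16, then 31 and 51 in the largest, and 71 in GV oocytes (log2 difference 2.28, adjusted p = 0.00068). Rab39b, X-linked and known from neurons, had 6 and 12 reads in the smallest class, then 39 and 11, then 46 and 49, then 56 and 96 in the largest (2.94, adjusted p = 0.00136). An antisense gene, Gm15063, shares 634 exon bases with Rab39b. Rab6b, the neuronal partner of Rab6a, had 124 and 267 reads in the smallest class, then 76 and 134, then 40 and 67, then 30 and 36 in the largest, and it fell by 2.63 (adjusted p = 2.24e-05). Its level was 0.264 and 0.355 RPKM at 10–30 μm. The others that fell were Rab37, Rab36, Rab34, Rab44 and Rab40b, of which the highest value in a library was 0.296 RPKM (Rab37), and these genes, like Rab13 and Rab39b, were named after their values were seen. Levels this low lay under the sums of the theca and stroma genes, which went from 4.0 and 2.88 to 1.12 and 1.03 RPKM over the same classes. The part of other cells in these low values was not tested.

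Fully grown GV oocytes differed little from the 60–65 μm class. No Rab gene was at least 2-fold above or below both 60–65 μm libraries, where 0.98% of 10310 genes were above and 0.272% below. Over the 36 tested Rab genes the ratio of the GV value to the 60–65 μm mean ran from 0.571 for Rab11b and 0.659 for Rab31 to 1.33 for Rab8b, with a median of 0.978. The GV column has no replicate, and no test was made.

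The proteins that run the Rab cycle were followed by lists of their genes. Of the 4 GDI and escort genes reported here, 2 fell between 10–30 and 60–65 μm. Chm, the escort protein that presents new Rab proteins for prenylation, was at 0.971 and 0.922 against 0.320 and 0.393 RPKM, and fell by 1.2 (SE 0.14, adjusted p = 0.000165). Chm reached 0.5 RPKM only in the 10–30 and 40–45 μm libraries. It thus entered the test only through the classes where it was high, and its call is no support for a fall. Rabac1, which helps to release Rab proteins from GDI, was at 38.3 and 30.4 against 17.4 and 17.7 RPKM, and fell by 0.95 (SE 0.14, adjusted p = 0.00055). Gdi2, a GDI, at 28.9 and 25.5 against 23.2 and 19.6 RPKM, did not pass (-0.35 ± 0.15, SE, adjusted p = 0.0672). Chml, another escort protein, named after its values were seen, at 1.5 and 1.59 against 1.81 and 1.77 RPKM, did not pass either (0.20 ± 0.09, SE, adjusted p = 0.0891). Neither gene of the prenyltransferase passed: Rabggta was at 2.32 to 2.85 RPKM and Rabggtb at 1.81 to 2.88 RPKM in growing oocytes (adjusted p = 0.73 and 0.59). Over all the lists of regulators 65 of 100 tested genes passed, 37 higher and 28 lower in the larger oocytes, near the 31.5% and 31.8% of all genes that rose and fell.

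Of 25 tested GEF genes, 12 rose and 4 fell, beside 31.5% and 31.8% of all genes. The largest differences among those called were in Dennd1b, Rin2 and Dennd3. Dennd1b, an exchange factor for Rab35, was at 0.690 and 0.770 against 0.205 and 0.251 RPKM, and it reached 0.5 RPKM only in the 10–30 μm libraries, so that it entered the test only through the class where it was high and its call is no support for a fall. Rin2, one for Rab5, was at 1.36 and 1.79 against 0.543 and 0.573 RPKM and fell by 1.33. Dennd3, one for Rab12, was at 0.683 and 0.918 against 1.84 and 1.85 RPKM and rose by 1.12. Of 32 tested GAP genes, 15 rose and 9 fell, beside the same 31.5% and 31.8% of all genes. Tbc1d12 fell by 1.96, from 0.787 and 0.783 to 0.106 and 0.148 RPKM, with 0.0431 RPKM in GV oocytes. It reached 0.5 RPKM only in the 10–30 and 40–45 μm libraries, so that it entered the test only through classes where it was high. Its call is no support for a fall. Tbc1d2b rose by 1.07, from 0.666 and 0.838 to 1.73 and 1.63 RPKM. Tbc1d14, at 4.46 and 6.56 against 13.5 and 8.25 RPKM, rose by 0.95. All 3 carry the TBC domain of Rab GAPs.

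Of 36 tested effector genes, 10 rose and 12 fell, shares near the 31.5% and 31.8% of all genes. Appl2, an effector of Rab5, was at 1.44 and 1.63 RPKM in 10–30 μm and 0.317 and 0.341 RPKM in 60–65 μm oocytes, and fell by 1.93 (SE 0.13, adjusted p = 1.15e-05). It was under 0.5 RPKM in both 60–65 μm libraries, so that it entered the test only through the smaller classes, where it was higher. Its call is thus no support for a fall. Rph3a, which encodes rabphilin and binds Rab3, was at 0.361 and 0.515 against 1.95 and 1.63 RPKM, with 2.53 RPKM in GV oocytes, and rose by 1.82 (SE 0.16, adjusted p = 3.09e-05). Sytl2, a Rab27 effector of the synaptotagmin-like group, was at 0.327 and 0.255 against 1.36 and 1.05 RPKM, with 2.61 RPKM in GV oocytes, and rose by 1.73 (SE 0.16, adjusted p = 5.02e-05). Sytl2 reached 0.5 RPKM only in the 50–55 and 60–65 μm libraries of growing oocytes. It thus entered the test only through the classes where it was high, and its call is no support for a rise. The medians of the log2 differences were -0.06 for the prenyltransferase, 0.12 for GEFs, 0.18 for GAPs and 0.13 for effectors, against -0.00024 over all genes tested. No median is given for the GDI and escort list, of which 1 gene is not reported here.

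Methylation is described at gene starts, within 1 kb of the 5′ end, and in gene bodies, from 1 kb past the start to the end. In mouse oocytes promoters are mostly unmethylated and methylation is laid down over transcribed gene bodies as the oocyte grows. Rab gene starts were nearly free of it. In RRBS the mean over 40 to 48 Rab gene starts per library was 0.594% and 0.596% in the 40–45 μm class, then 0.794% and 0.886% in the 50–55 μm class, then 0.776% and 1.37% in the largest, and no start exceeded 7.27%. PBAT gave a mean of 3.76% over 55 starts at 60–65 μm with a maximum of 13.8% at Rab44, and 0 of 55 reached 25%, against 6.00% of all gene starts. These means moved with the number of reads required of a cytosine, here 5. With at least 1 read the RRBS mean of both libraries was 1.03% at 40–45 μm and 1.66% at 50–55 μm, and with at least 10 reads the PBAT mean was 2.42%. The starts of Rab31, Rab3b, Rab38 and Rab28 were at 3.23%, 3.47%, 2.45% and 4.66% in PBAT, from 39 to 92 CpG cytosines.

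Rab genes at 0.5 RPKM or above mostly had methylated bodies, as did most genes at that level. PBAT covered 51 Rab gene bodies at 60–65 μm, with a median of 39.3% against 27.6% over 17457 genes, and 31 of the 51 reached 25% (60.8%, against 52.2% of all). Of the 33 at 0.5 RPKM or above, 30 reached 25%, as did 85.0% of all genes at that level and 21.2% of those below it. The 33 had a median of 51.2% and a highest value of 68.8% at Rab2a. Of the 18 below 0.5 RPKM, 17 were between 3.50% (Rab17) and 16.8% (Rab30), and the median was 9.39%. Over all genes the medians on the 2 sides of 0.5 RPKM were 48.9% and 9.49%. Spearman's rho between level and body methylation was 0.64 across the 51 Rab genes and 0.64 across 17438 genes, a description across genes of 1 library.

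Rab3b and Rab2b differed from most other Rab genes on the same side of 0.5 RPKM. Rab3b, at 2.56 and 2.50 RPKM, had a body at 10.6% over 200 CpG cytosines, the lowest of the 33 genes at or above 0.5 RPKM. Along its 64.3 kb, cut into 10 equal bins, means stayed between 0% and 12%, apart from bin 9 at 45.0% (14 cytosines). Rab31, at a like level of 2.52 and 2.82 RPKM, had a body at 56.3% over 620 cytosines, and every bin of it lay between 17.5% and 74.8%. Rab2b, at 0.119 and 0.127 RPKM, had a body at 57.0% over 68 cytosines, against 8.92% for Rab6b at 0.0603 and 0.042 RPKM. Its exons overlap those of Tox4 and Gm43766 on the opposite strand by 195 and 2469 bases. PBAT has no replicate, and positions had a minimum of 5 reads.

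**Figure D4:**
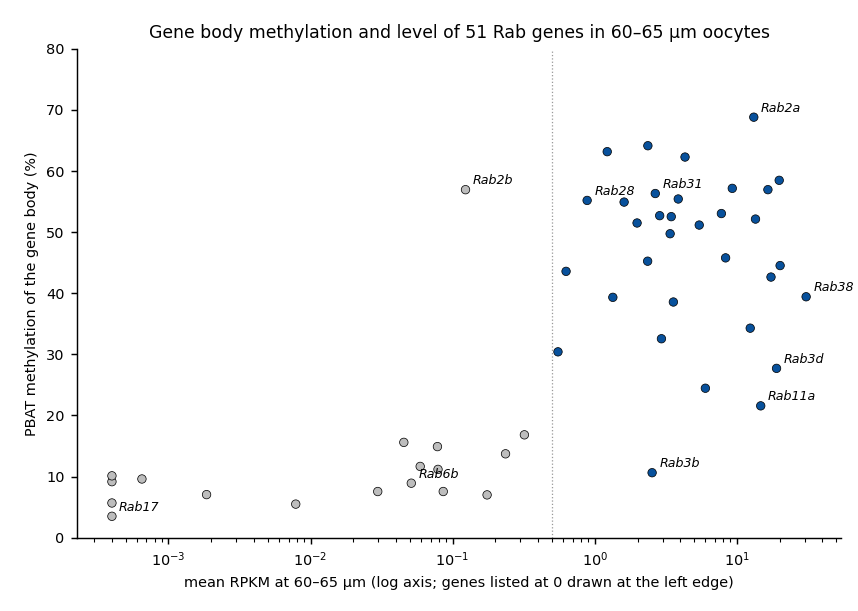
Methylation in percent of 51 Rab gene bodies in the PBAT library (vertical axis) against mean RPKM at 60–65 μm on a log axis; blue points are genes at 0.5 RPKM or above, grey points below it, genes listed at 0 stand at the left edge, and the dotted line marks 0.5 RPKM. Rab3b lies low among the blue points at 10.6%, and Rab2b high among the grey ones at 57.0%.

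**Figure D5:**
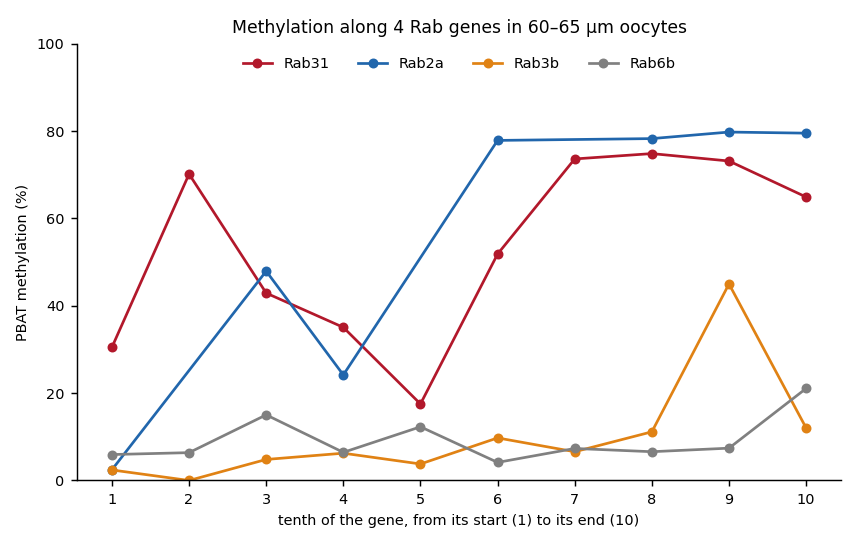
PBAT methylation in percent of 4 Rab genes in 10 equal bins of their length from start to end; a point needs at least 5 CpG cytosines. Rab31 and Rab2a are above 60% in bins 8 to 10, whereas Rab3b and Rab6b stay low, apart from bin 9 of Rab3b at 45.0%.

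RRBS followed 8 Rab gene bodies in all 6 libraries. Their mean was 3.44% and 3.74% in the 40–45 μm class, then 8.26% and 9.78%, then 18.9% and 19.2% in the largest, beside means of 2.51% and 2.40%, 8.90% and 12.7%, and 16.5% and 17.1% over 5052 genes. The gain was in the 4 genes at 0.5 RPKM or above. Rab31 was at 2.59% and 5.13%, then 18.9% and 27.6%, then 32.7% and 43.4%. Rab21 was at 6.41% and 0.245%, then 19.6% and 21.9%, then 53.2% and 57.7%. Rab27a and Rab4a reached 26.5% and 25.4%, and 25.2% and 16.2%, at 60–65 μm. Rab26, Rab36 and Rab37 were at 3.34% or less in every library, and Rab3c, with 0 to 2 reads per RNA-seq library of growing oocytes, was at 10.7% and 17.1% at 40–45 μm and 7.23% and 7.28% at 60–65 μm. No test was made of these differences.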

How the data were processed

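Oocytes of wild-type mice were measured by RNA-seq, RRBS and PBAT, 16 samples in all. The authors trimmed RNA-seq reads with Trim Galore 0.2.8, aligned them to GRCm38 with TopHat 2.0.9 and deposited RPKM, whose columns give 1 value per gene; whether Cufflinks or SeqMonk made them is not given in the sources used here. For methylation, Trim Galore 0.3.5 and Bismark 0.14.0 (RRBS) or 0.10.0 (PBAT, with duplicates removed) were used, and the deposited files give the percent methylated and the counts of methylated and unmethylated calls per CpG cytosine.

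The Rab genes, lists and roles were chosen with earlier results of these data known. Genes of at least 0.5 RPKM in 2 of 8 libraries were tested with limma 3.58.1 (trend, two-sided) on log2(RPKM + 0.1), which understates changes of low genes, in 1 fit with a mean per class, after trimmed-mean scaling (30% by ratio, 5% by level, factors 0.950 to 1.05), with Benjamini-Hochberg adjustment at 0.05. On simulated data for 10–30 against 60–65 μm (10518 genes) 38 of 100 changes of 1.5-fold and 83 of 100 of 2-fold were called, with 11 unchanged genes. The simulation held 200 changed genes and independent noise per library. In the data far more genes were called and letters deviated together, so that these rates need not hold there. Whole reads could be recovered from the steps of the RPKM values for 99.7% of tested genes, as the smallest whole numbers within 0.05 of a read, and were used with edgeR 4.0.16 and DESeq2 1.42.0. Methylation was averaged over cytosines with at least 5 reads (5 per start, 10 per body, genes of 4 kb or more), without a test; RRBS gene bodies were added after the data were seen. Named genes were those called with a log2 difference of at least 1, the 12 with the highest mean level, members 2-fold off in GV oocytes, paralogues of any of these, and, per list, the 3 largest called differences with GDI, escort and prenyltransferase genes. Python 3.11.15 and R 4.3.3 were used. Upstream sequences came from RefSeq. Scaling, pseudocount, filter, variance model, replicate letter, coverage minimum and single libraries were varied. The PBAT and GV columns have no replicate. 1 gene of the regulator lists is not reported here.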

Additional observations from a re-analysis of the deposited data

How the results depend on the processing

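Counts of Rab genes called did not depend on the pseudocount (1 or 0.01), a filter at 1 RPKM, the scaling, the trend in the variance, edgeR or DESeq2 by more than 1.5 times in any of the 4 comparisons, nor did the 65 regulators. The exceptions were as follows. From 10–30 to 40–45 μm, 6 calls became 10 without a filter on low values (22 became 33 from 10–30 to 60–65 μm) and 3 with only the 4 libraries compared. Without the filter 6.12% of all genes rose and 6.73% fell in the first step, and 23.2% and 23.4% from 10–30 to 60–65 μm. With only the 4 libraries 5.87% of all genes rose and 3.69% fell in the first step. From 40–45 to 50–55 μm, 2 calls became 5 with the replicate letter as a block (Rab3b and Rab38 also rose, Rab1b also fell), a step between classes whose letters deviated together. Of all genes 9.59% then rose and 8.25% fell, in place of 5.27% and 3.45%. When single libraries were left out, the counts ranged from 3 to 6 (3 without 40–45 A) for the first step, from 0 to 3 for the second (0 without 40–45 B, without 50–55 A and without 50–55 B), from 15 to 23 for 10–30 to 60–65 μm, and from 48 to 65 for the regulators; the last step stayed at 0, as did the comparison with GV oocytes without either 60–65 μm library. Fewer samples leave the test less power, and for the other exceptions the cause was not tested.

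No log2 difference of a called Rab gene changed sign in 566 values recomputed, and 54 of them no longer passed. Of the 22 genes called from 10–30 to 60–65 μm, 13 passed under every alternative run, Rab31, Rab3b, Rab38 and Rab28 among them. The correlation of A minus B was 0.60, 0.59 and 0.67 between the 3 smaller classes, so that these libraries deviated together by letter, but -0.23, -0.03 and 0.11 between each of them and the 60–65 μm class. No source says what the letters share. With them as a block 26 Rab genes were called from 10–30 to 60–65 μm in place of 22, with Rab7 and Rab4a also higher and Rab11a and Rab9 also lower. Of all genes 34.4% then rose and 34.8% fell, in place of 31.5% and 31.8%.

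The mean methylation of Rab gene starts moved from 0.595% to 1.03% with at least 1 read and to 0.692% with at least 10 reads at 40–45 μm, and from 0.840% to 1.66% with at least 1 read at 50–55 μm. In PBAT it moved from 3.76% to 4.09% and 2.42% at starts, and from 34.5% to 35.1% and 36% in bodies, with at least 1 and at least 10 reads. Leaving out a library gave 0.594% to 0.596%, 0.794% to 0.886% and 0.776% to 1.37% for the 3 classes. Genes under 0.5 RPKM rest on few reads, and body values on as few as 10 cytosines.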
